A study of Homo sapiens with 24 samples.

Results

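The genes described here are the ELL, EAF and AFF families of elongation factors, 8 genes of the 19775 measured: ELL, ELL2, ELL3, EAF1, EAF2, AFF1, AFF3 and AFF4. They were chosen by name, with earlier results of these data known. Together they have 30 probe sets, of 54675 on the array, that the probe table assigns to one of these genes alone. A probe set is a group of short oligonucleotides that reports 1 transcript, and where a gene had several, the one with the highest mean over all arrays was used to represent it. All 8 genes were bright enough to be tested in both cell lines.

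RNA polymerase II often halts shortly after it starts, and the super elongation complex is one of the machines that send it onward into the gene. The complex joins the kinase P-TEFb, made of CDK9 and a cyclin T, to an ELL protein that speeds up the polymerase, an EAF protein that binds ELL, and an AFF protein that serves as the scaffold. EAF2 and ELL2 are also known as androgen-responsive genes of the prostate, and EAF2 is known by the older name U19.

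The study measured RNA from VCaP and LNCaP, established human prostate cancer lines that respond to androgen, on 24 Affymetrix HG-U133 Plus 2.0 arrays. In LNCaP, which carries a rearranged ETV1 gene, the groups were shETV1 (a short hairpin RNA against ETV1) with dihydrotestosterone (DHT), shControl with DHT, shETV1 with ethanol (EtOH, the vehicle) and shControl with EtOH. In VCaP, which carries a TMPRSS2 and ERG fusion, they were siERG (a small interfering RNA against ERG) with DHT, siControl with DHT, siERG with EtOH and siControl with EtOH. All 8 groups had 24 h of RNA interference, then 2 days in hormone-depleted medium, then 16 h with 10 nM DHT or EtOH, and each held 3 arrays described as biological replicates. The LNCaP control appears as shControl in the titles and as siControl in the sample characteristics, and it is called shControl here. Whether each line was transfected as a pool or a clone was not given in the sources used here.

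Values are the deposited intensities, a linear measure of probe brightness. Changes are differences of log2(intensity + 16) with the standard error (SE) from limma, n = 3 arrays per group, and a fold on this scale understates the change of dim genes. A gene rose or fell when its p-value, adjusted by the Benjamini-Hochberg method over the 12840 genes tested in VCaP or the 12823 in LNCaP, was below 0.05. Probe sets differ in brightness for reasons unrelated to abundance, so no gene's intensity is set against another's, and intensities are not set against each other between lines, whose arrays may have been processed apart. The number of arrays limits the precision of every value.

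The labels were checked first. ERG read 536.19 to 591.73 on the 6 siERG arrays and 950.17 to 1203.94 on the 6 siControl arrays, and fell by 1.09 ± 0.06 (SE) with DHT and by 0.82 ± 0.06 with EtOH. ETV1 read 713.75 to 891.93 on the shETV1 arrays and 1029.83 to 1326.06 on the shControl arrays, and fell by 0.62 ± 0.07 with DHT and by 0.61 ± 0.07 with EtOH. FKBP5, a standard androgen-induced gene, rose with DHT by 3.52 ± 0.07 in LNCaP shControl and by 1.90 ± 0.07 in VCaP siControl cells. The 5 luminal epithelial markers measured lay above the array median on all arrays. Their summed intensity in LNCaP shControl cells was 32027.33 to 33578.70 with DHT and 16597.36 to 17216.45 with EtOH, and its part in the results was not tested. The sum includes KLK3, which itself rose with DHT by 2.47 ± 0.07 in these cells. None of the 3 basal markers lay above the median on all arrays of any group. Of 3 neuroendocrine markers, 2 to 3 lay above the median on all arrays of each VCaP group and 0 did in LNCaP. The ratio of 3' to 5' GAPDH signal, a sign of RNA quality, averaged 1.03 to 1.11 over the groups. The same ratio for ACTB was higher and averaged 2.76 to 3.50. With DHT in VCaP, the ACTB ratio read 2.49 to 3.06 on siERG and 3.46 to 3.56 on siControl arrays. In bulk RNA, fewer cells of a type and less RNA per cell cannot be told apart.

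DHT moved most of the 8 genes in the same pattern in all 4 cell populations. EAF2, ELL2, AFF3 and AFF4 rose and AFF1 fell in each of them, while ELL passed in none. In LNCaP shETV1 cells 4 genes rose and 1 fell, where 18.8% of all tested genes rose and 19% fell. In LNCaP shControl cells 4 rose and 2 fell, against 18.6% and 22.3% of all genes. In VCaP siERG cells the counts were 4 and 2, against 20.1% and 25.2%, and in VCaP siControl cells they were also 4 and 2, against 19.6% and 25.4%. The 8 genes were chosen with earlier results of these data known, so these counts are descriptive and are not a test. The median change of the 8 genes was 0.16 in both LNCaP populations, 0.25 in VCaP siERG and 0.26 in VCaP siControl cells, and that of all tested genes lay between -0.03 and 0.00. Where arrays were centred on their medians, the share of risen genes among all called became 58.4% in VCaP siERG cells, against 44.3% as reported.

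**Figure D1:**
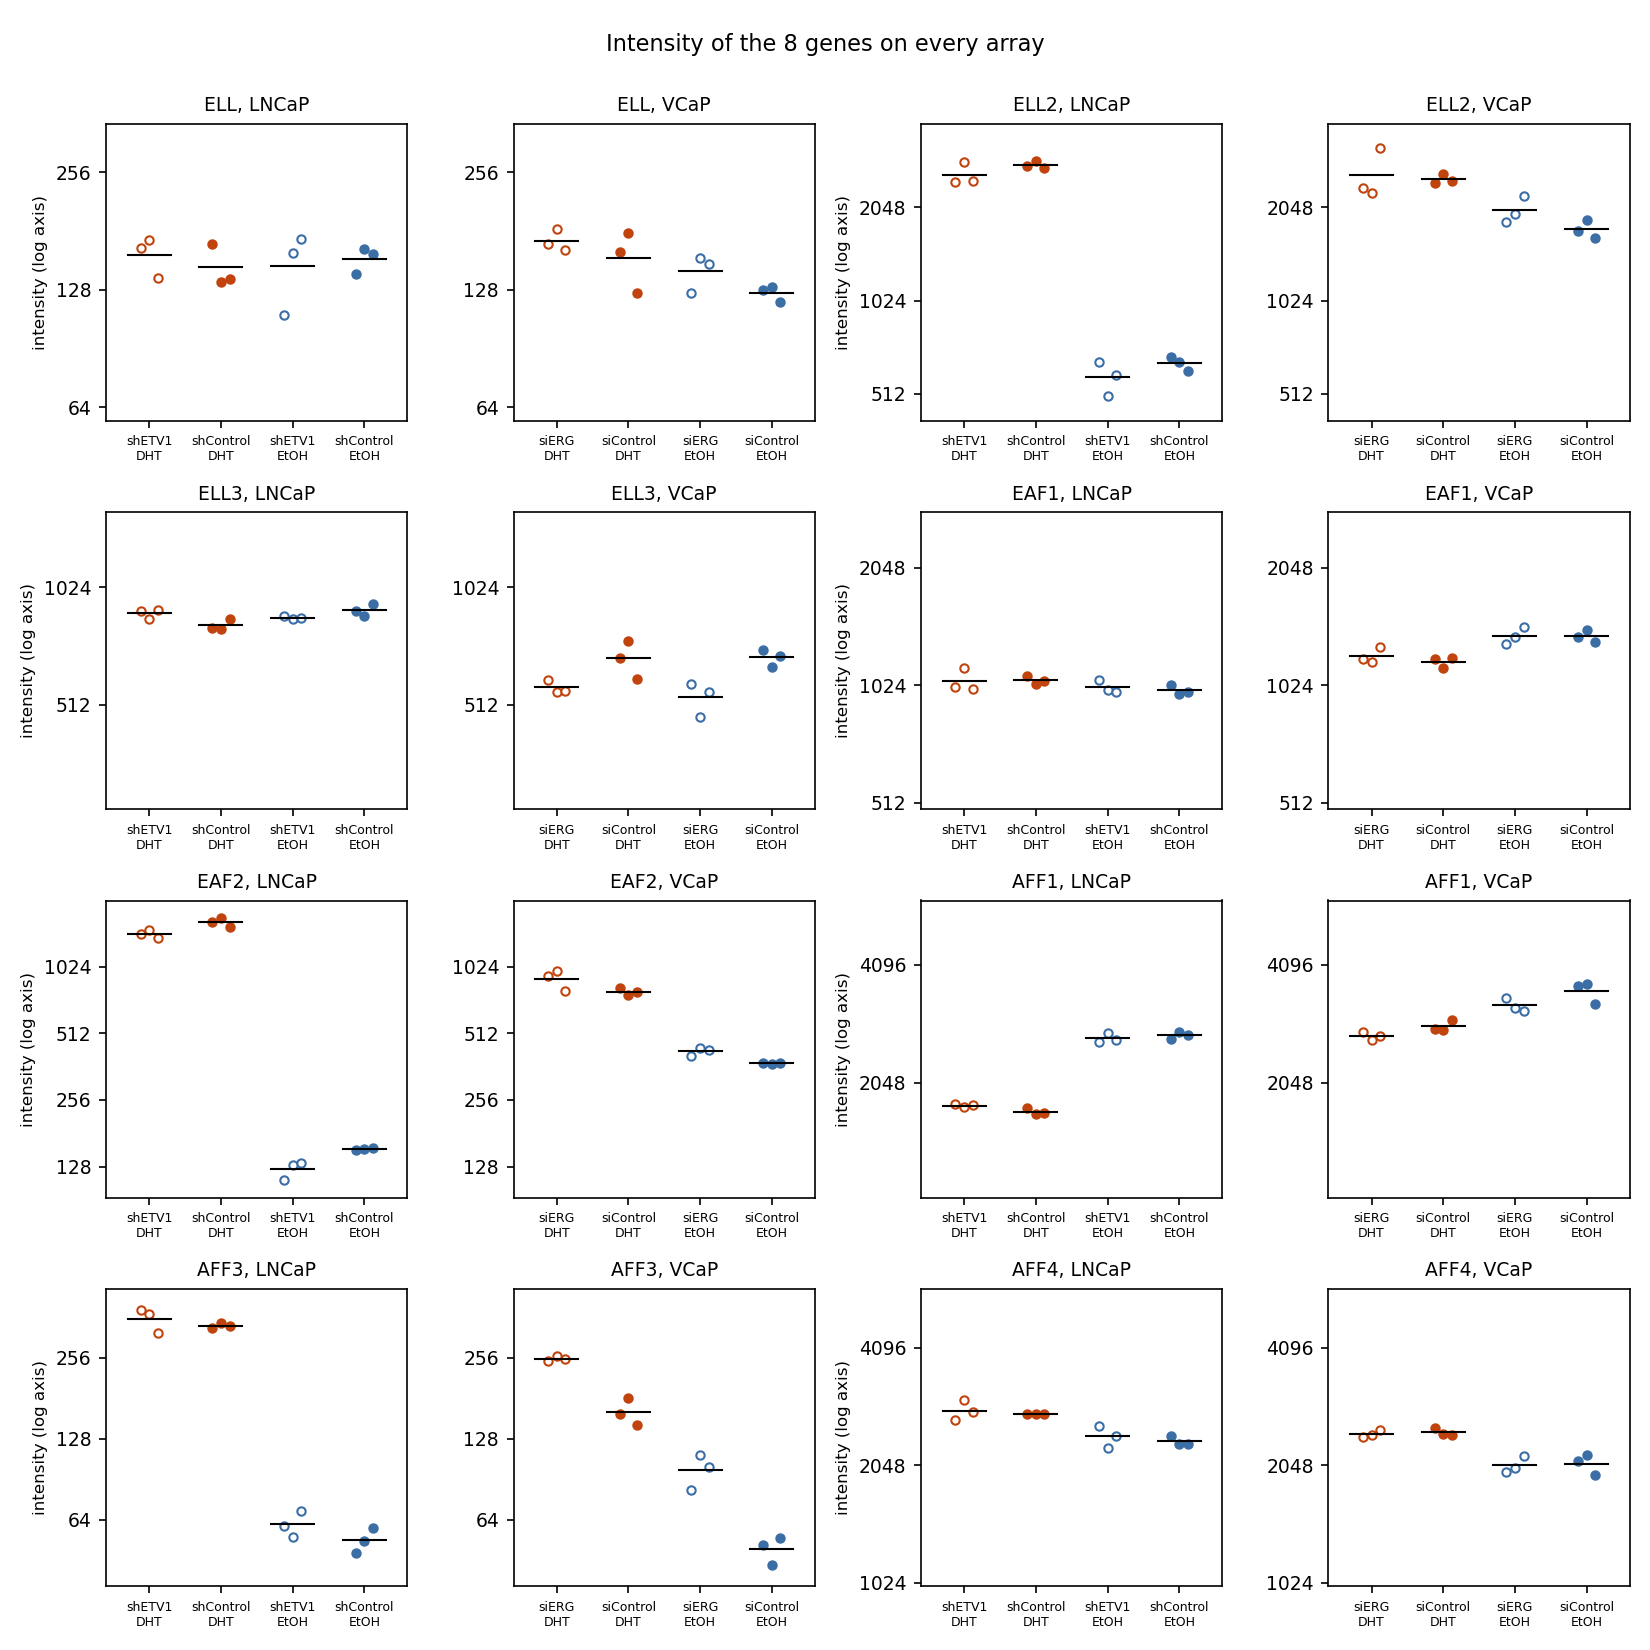
Intensity (log axis) of the probe set representing each gene on all 24 arrays, LNCaP left of VCaP for each gene. Orange points are DHT and blue points EtOH arrays, open points are knockdown and filled points control cells, and the black bar is the mean of 3 arrays. The DHT arrays of EAF2 and AFF3 lie above all EtOH arrays in both lines, and those of AFF1 lie below them.

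ELL2, the elongation factor known to act in plasma cells to favour secreted antibody, was raised by DHT in both lines. Its intensities in LNCaP shControl cells were 2782.78, 2883.21 and 2752.15 with DHT, against 672.39, 649.58 and 606.36 with EtOH. Every DHT array lay far above every EtOH array, a change of 2.10 ± 0.09 or 4.29-fold (adjusted p = 1.12e-08). In shETV1 cells it reached 2466.28, 2873.00 and 2499.05 with DHT, against 649.51, 504.16 and 589.07 with EtOH, and the change was 2.14 ± 0.09 (adjusted p = 1.04e-08). The rise in VCaP was smaller. In siControl cells the intensities were 2460.47, 2625.17 and 2497.16 with DHT and 1724.75, 1866.02 and 1633.02 with EtOH, a change of 0.54 ± 0.12 or 1.45-fold (adjusted p = 0.00358). In siERG cells they were 2367.91, 2280.95 and 3185.31 with DHT and 1835.22, 1956.80 and 2233.27 with EtOH, and the lowest DHT array lay just above the highest EtOH array. That change, 0.36 ± 0.12 (adjusted p = 0.0274), did not pass without siERG EtOH replicate A or B or siERG DHT replicate C, nor after quantile normalization (adjusted p = 0.0577). Once the GAPDH ratio was added to the model the estimate was 0.84. That ratio was 1.02 to 1.04 on siERG DHT arrays and 1.07 to 1.11 on siERG EtOH arrays. On siControl arrays it was 1.07 to 1.08 with DHT and 1.04 to 1.06 with EtOH, also without overlap. Ratio and hormone can therefore hardly be told apart in either VCaP population, here and for the genes below.

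The probe sets of ELL2 did not agree in VCaP. Of the 4, 214445_at stayed below the median of every array. The probe set 214446_at rose with DHT in both lines, by 2.43 ± 0.06 in LNCaP shControl and 0.62 ± 0.07 in VCaP siControl cells. The third, 226982_at, rose by 1.86 ± 0.07 in LNCaP shControl cells (adjusted p = 5.06e-09), where it read 255.40, 246.41 and 214.21 with DHT and 52.27, 50.62 and 59.63 with EtOH. In VCaP siControl cells the same probe set read 629.50, 616.78 and 646.06 with DHT and 618.71, 629.92 and 565.41 with EtOH. Those groups overlap, and the change of 0.06 ± 0.06 did not pass (adjusted p = 0.412). The split was the same in VCaP siERG cells. There 214446_at rose with DHT by 0.66 ± 0.07 (adjusted p = 3.89e-05), and 226982_at changed by 0.06 ± 0.06 (adjusted p = 0.445). Which transcripts each probe set reads was not tested.

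**Figure D2:**
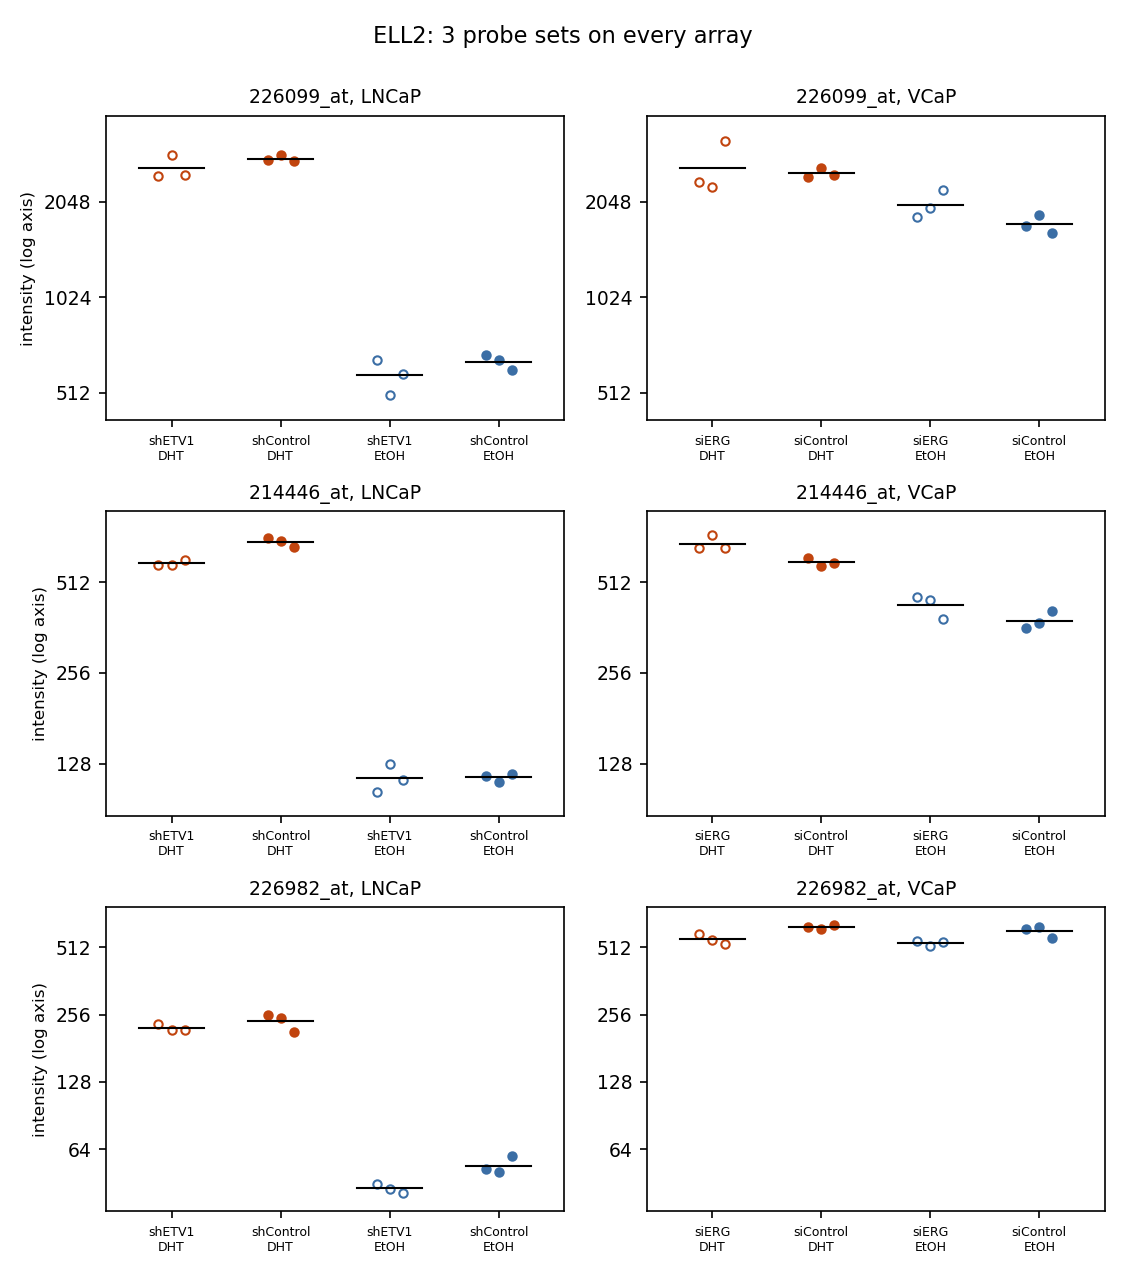
Intensity (log axis) of the 3 brighter ELL2 probe sets on all 24 arrays, with LNCaP left and VCaP right. Orange points are DHT and blue points EtOH arrays, open points knockdown and filled points control cells, and the bar is the mean of 3 arrays. The first and second rise with DHT in both lines, and 226982_at separates DHT from EtOH arrays in LNCaP and overlaps between them in VCaP siControl cells.

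ELL, the founding member of the family and a fusion partner of KMT2A in leukaemia, passed in none of the comparisons. In VCaP siControl cells it read 160.14, 178.63 and 125.58 with DHT and 128.15, 129.93 and 118.91 with EtOH, a change of 0.26 ± 0.11 (adjusted p = 0.0802). One DHT array overlapped the EtOH arrays. The change passed in 5 of 30 alternative settings, among them without that array, replicate C, with averaged probe sets and with quantile normalization. In VCaP siERG cells ELL read 167.47, 183.55 and 161.80 with DHT and 125.77, 154.60 and 148.75 with EtOH. Those groups did not overlap, and the change of 0.24 ± 0.11 (adjusted p = 0.106) passed in 6 of 30 settings and reached 0.49 with the GAPDH ratio in the model. The LNCaP shControl change was -0.07 ± 0.14 (adjusted p = 0.74). The second ELL probe set above the median, 204095_s_at, did not pass with DHT in control cells of either line.

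ELL3, a family member known from testis and from enhancers of embryonic stem cells, moved little with DHT on its representing probe set. In LNCaP shControl cells it read 807.33, 803.30 and 849.61 with DHT and 888.12, 866.67 and 926.15 with EtOH. The groups did not overlap, and the fall of 0.12 ± 0.04 passed narrowly (adjusted p = 0.0369) but was lost in 17 of 31 alternative settings, among them the omission of any of 7 single arrays. Its other probe set, 219518_s_at, did not pass there (-0.07 ± 0.05). In VCaP siControl cells that probe set changed by 0.35 ± 0.13 (adjusted p = 0.0561), and its response differed between LNCaP shControl and VCaP siControl cells by -0.42 ± 0.15 (adjusted p = 0.0358). The representing probe set, 219517_at, changed by 0.04 ± 0.04 in LNCaP shETV1, 0.08 ± 0.09 in VCaP siERG and -0.01 ± 0.09 in VCaP siControl cells. None of these changes passed.

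EAF2, which binds ELL proteins and is known as a candidate growth suppressor in the prostate, had the largest rise of the 8 genes in LNCaP. In shControl cells its intensities were 1631.02, 1699.79 and 1542.75 with DHT and 151.99, 153.55 and 155.09 with EtOH. All 3 DHT arrays stood far above all 3 EtOH arrays, a change of 3.27 ± 0.06 or 9.67-fold (adjusted p = 4.68e-11). In shETV1 cells it read 1446.55, 1497.30 and 1387.22 with DHT and 111.18, 129.95 and 132.55 with EtOH, a change of 3.38 ± 0.06 (adjusted p = 3.40e-11). VCaP showed the same direction at a smaller size. The siControl arrays read 816.64, 762.72 and 783.38 with DHT and 374.65, 373.84 and 374.90 with EtOH, a change of 1.04 ± 0.07 or 2.06-fold (adjusted p = 7.52e-07). The siERG arrays read 924.85, 975.88 and 793.90 with DHT and 403.68, 441.39 and 429.06 with EtOH, a change of 1.05 ± 0.07 (adjusted p = 7.21e-07). Both VCaP populations separated DHT from EtOH on all arrays. The other 2 EAF2 probe sets stayed below the array median throughout.

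EAF1, the paralogue that also binds ELL proteins, did not follow EAF2. It fell in VCaP siControl cells, which read 1194.38, 1135.29 and 1200.18 with DHT and 1358.81, 1417.39 and 1318.43 with EtOH, by 0.21 ± 0.05 (adjusted p = 0.0079). All DHT arrays lay below all EtOH arrays. It fell in siERG cells by 0.17 ± 0.05 (adjusted p = 0.0253), a call lost in 10 of 31 settings, among them centring on array medians, no filter and a fit of only the groups compared. With the GAPDH ratio added to the model that change was -0.00 (adjusted p = 0.996), and GAPDH ratios there averaged 1.03 with DHT and 1.09 with EtOH. In LNCaP the changes were 0.05 ± 0.05 in shETV1 and 0.08 ± 0.05 in shControl cells, and neither passed.

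The promoters of this pair are shown because the genes share a protein partner and parted in their response to DHT. Sequences are from RefSeq on GRCh38.p14, 250 bases before to 50 after the annotated start. They are held for 7 of the 8 genes, and ELL2 is the gene without one. Capitals mark CGGAAG or its reverse complement CTTCCG, a form of the site bound by ETS proteins, the family of ERG and ETV1. The windows are chr3:121834959-121835258 (plus strand) for EAF2 and chr3:15427348-15427647 (plus strand) for EAF1.
EAF2: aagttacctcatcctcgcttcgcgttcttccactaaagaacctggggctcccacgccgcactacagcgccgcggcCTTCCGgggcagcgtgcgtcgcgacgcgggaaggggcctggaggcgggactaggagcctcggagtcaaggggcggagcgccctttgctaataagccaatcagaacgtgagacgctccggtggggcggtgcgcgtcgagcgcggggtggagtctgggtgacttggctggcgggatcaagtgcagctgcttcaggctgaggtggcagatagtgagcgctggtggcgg
EAF1: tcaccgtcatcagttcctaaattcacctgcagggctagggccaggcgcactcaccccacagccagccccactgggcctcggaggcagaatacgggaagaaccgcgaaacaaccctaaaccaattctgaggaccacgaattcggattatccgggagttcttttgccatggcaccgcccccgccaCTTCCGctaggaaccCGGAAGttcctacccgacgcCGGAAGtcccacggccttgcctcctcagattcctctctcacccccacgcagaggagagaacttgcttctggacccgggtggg
EAF2 held 1 match and EAF1 held 3, at 67, 52 and 32 bases before its start, and 19.5% of 35116 promoters of this length held at least 1. One arm of the androgen response element, AGAACA or its reverse complement TGTTCT, was in 0 of the 9 windows of the members and in 14.8% of all promoters. The full palindromic element was in 0 of the 9 and in 0.00285% of all. A match is a run of letters and not a bound site, and the windows leave out distant enhancers.

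AFF3, a scaffold protein known from lymphoid tissue, was among the most strongly raised of the 8 genes. LNCaP shControl arrays read 328.70, 342.66 and 335.64 with DHT and 48.10, 53.60 and 59.94 with EtOH. The EtOH arrays sat just above the array medians of 42.7 to 44.8 and the DHT arrays far above it, a change of 2.33 ± 0.09 (adjusted p = 4.51e-09). In shETV1 cells it read 383.42, 373.18 and 315.30 with DHT and 60.79, 55.35 and 68.94 with EtOH (change 2.26 ± 0.09). In VCaP siControl cells the arrays read 157.46, 181.19 and 143.81 with DHT and 51.57, 43.61 and 54.57 with EtOH, a change of 1.42 ± 0.10 (adjusted p = 1.34e-06). In siERG cells they read 248.50, 258.78 and 253.39 with DHT and 82.87, 111.01 and 100.29 with EtOH, a change of 1.25 ± 0.10 (adjusted p = 3.45e-06). DHT and EtOH arrays were apart in all 4 populations. A second probe set, 1565034_s_at, read 57.29, 56.62 and 61.96 with DHT and 7.18, 6.91 and 10.26 with EtOH in LNCaP shControl cells. It exceeded the array median on LNCaP DHT arrays alone, so no change is given for it, and the other 4 lay below the median on all arrays of both lines.

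AFF3 has 2 annotated starts in the table, and both windows are shown because in VCaP it rose both with DHT and after ERG knockdown. They lie on the minus strand at chr2:100142541-100142840 (distal start) and chr2:100105534-100105833 (proximal start), with capitals as above.
AFF3 distal: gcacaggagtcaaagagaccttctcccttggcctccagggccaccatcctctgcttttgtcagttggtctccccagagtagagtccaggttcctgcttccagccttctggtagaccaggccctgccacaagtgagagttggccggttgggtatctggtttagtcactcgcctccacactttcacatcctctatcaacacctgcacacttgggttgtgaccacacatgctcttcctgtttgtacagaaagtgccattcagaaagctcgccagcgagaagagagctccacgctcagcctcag
AFF3 proximal: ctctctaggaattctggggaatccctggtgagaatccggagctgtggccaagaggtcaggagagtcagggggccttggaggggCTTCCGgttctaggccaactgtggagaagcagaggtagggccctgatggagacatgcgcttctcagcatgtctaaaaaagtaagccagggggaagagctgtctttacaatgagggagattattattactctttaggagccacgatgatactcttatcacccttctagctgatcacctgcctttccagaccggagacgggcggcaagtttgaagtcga
The proximal window held 1 match, 167 bases before its start, and the distal window held 0. Which start is used in these cells was not tested.

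AFF4, the scaffold most often found in the complex, rose slightly in every population. In LNCaP shControl cells it read 2774.66, 2764.48 and 2769.07 with DHT and 2432.57, 2322.54 and 2323.50 with EtOH (change 0.23 ± 0.06, adjusted p = 0.00684). In VCaP siControl cells it read 2545.49, 2467.44 and 2447.28 with DHT and 2097.52, 2173.65 and 1932.14 with EtOH (change 0.27 ± 0.05, adjusted p = 0.00216). The groups did not overlap in either line. The changes were 0.22 ± 0.06 in LNCaP shETV1 and 0.26 ± 0.05 in VCaP siERG cells. With quantile normalization neither LNCaP change passed (adjusted p = 0.0581 in shETV1 and 0.0666 in shControl cells), and with the GAPDH ratio in the model the VCaP siERG estimate was 0.43. The probe sets 1555436_a_at, 219199_at and 232865_at, which lay above the median on all 24 arrays, changed by 0.36, 0.32 and 0.20 in LNCaP shControl and by 0.26, 0.36 and 0.18 in VCaP siControl cells. Each passed in VCaP siControl cells, but only 1555436_a_at did in LNCaP shControl cells. In the same order the changes were 0.38, 0.02 and 0.24 in LNCaP shETV1 and 0.22, -0.03 and 0.18 in VCaP siERG cells. Only 1555436_a_at passed in shETV1 and only 232865_at in siERG cells. The other 4 probe sets were below the median on some arrays.

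AFF1, the scaffold first known as a fusion partner of KMT2A in infant leukaemia, fell with DHT. LNCaP shControl arrays read 1762.08, 1696.79 and 1711.44 with DHT and 2651.02, 2750.60 and 2711.39 with EtOH. No arrays overlapped, and it fell by 0.65 ± 0.04 (adjusted p = 1.32e-07), or 1.56-fold. In shETV1 cells it fell by 0.57 ± 0.04 (adjusted p = 4.25e-07). In VCaP siControl cells it read 2813.63, 2784.05 and 2961.77 with DHT and 3621.86, 3668.77 and 3244.60 with EtOH, and fell by 0.30 ± 0.06 (adjusted p = 0.00129). In siERG cells it fell by 0.26 ± 0.06 (adjusted p = 0.00316), which did not pass once the GAPDH ratio was in the model (adjusted p = 0.0799). Its other 2 probe sets, 211826_s_at and 215451_s_at, read near the array median. The first changed by -0.455 ± 0.128 in VCaP siControl cells (adjusted p = 0.0151). Its changes of -0.18 ± 0.13 in VCaP siERG, -0.13 ± 0.11 in LNCaP shControl and -0.145 ± 0.111 in LNCaP shETV1 cells did not pass. The second exceeded the median on 3 VCaP arrays, all with EtOH, so no change is given for it. The average of all 3 probe sets fell by 0.28 in LNCaP shETV1 cells and by 0.22 in LNCaP shControl cells, and both still passed.

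**Figure D3:**
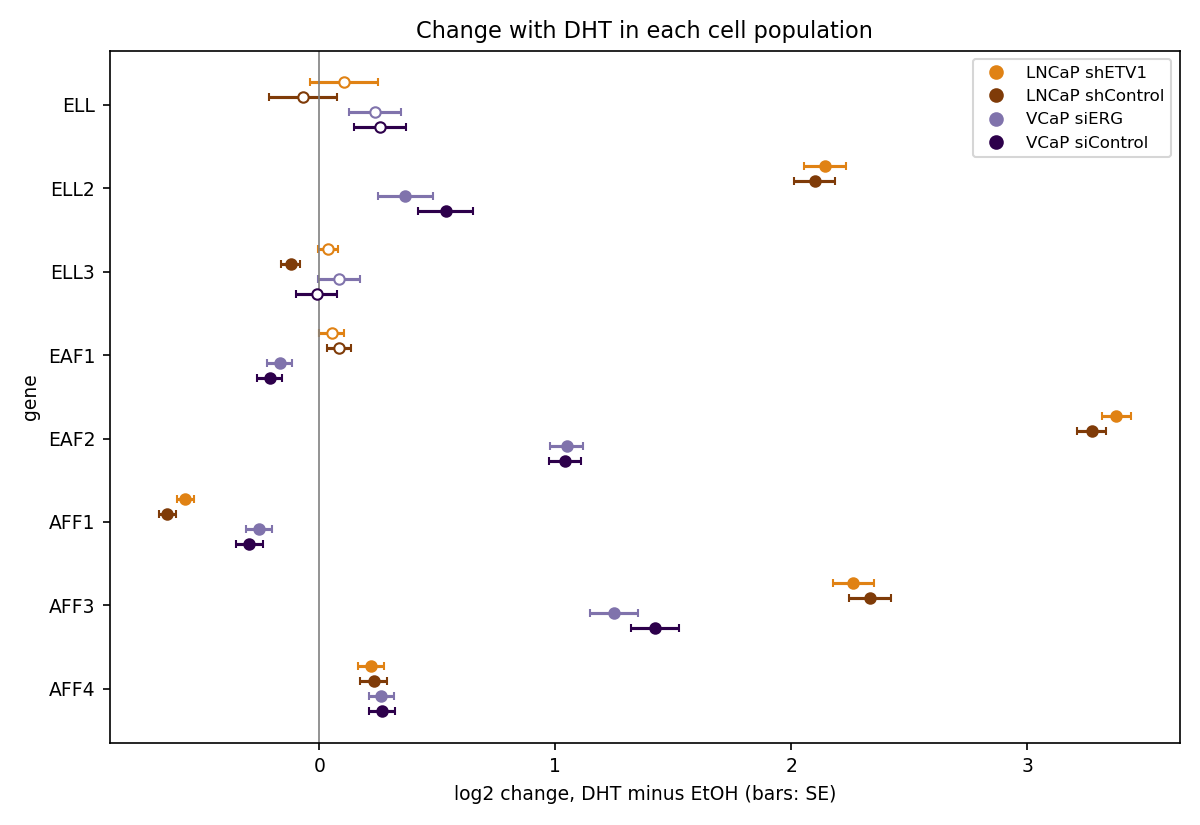
Change with DHT of the 8 genes, as log2(intensity + 16) with DHT minus EtOH, in LNCaP shETV1, LNCaP shControl, VCaP siERG and VCaP siControl cells. Points are limma estimates, bars are SE (n = 3 arrays per group), and filled points passed an adjusted p of 0.05. EAF2, ELL2 and AFF3 lie furthest right in LNCaP, AFF4 sits near 0.2 in all 4 populations, and AFF1 lies left of 0 in each.

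The size of the response was then compared between the lines by a test of the difference itself, LNCaP shControl minus VCaP siControl, over the 12305 genes tested in both. Of the 8 genes, 4 had a higher response in LNCaP, where 17.6% of all genes did, and 1 had a lower one, where 14.3% did. The median difference was 0.13 for the 8 genes and 0.01 for all. With quantile normalization 45% of all called genes were higher, against 55.1% as reported. EAF2 differed by 2.23 ± 0.09 (adjusted p = 6.97e-13), ELL2 by 1.56 ± 0.15 (adjusted p = 1.39e-07) and AFF3 by 0.91 ± 0.14 (adjusted p = 4.00e-05). For ELL2 all 3 probe sets gave a higher response in LNCaP, by 1.56, 1.80 and 1.81. EAF1 differed by 0.29 ± 0.07 (adjusted p = 0.00425), with a change of 0.08 in LNCaP and -0.21 in VCaP. AFF1 differed by -0.35 ± 0.06 (adjusted p = 0.000271). That value rested on 1 probe set, and the average with the 2 dim AFF1 probe sets gave 0.19 (adjusted p = 0.112). For AFF4 the difference was -0.04 with a 95% interval of -0.20 to 0.12, for ELL3 -0.11 (-0.32 to 0.10) and for ELL -0.33 (-0.72 to 0.07). The other ELL3 probe set did pass in this comparison, with the value given above. FKBP5 also rose more in LNCaP, by 1.62 ± 0.09, and line and any separate handling of its arrays cannot be told apart.

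Knockdown of the ETS factors moved fewer of the genes. With DHT, 0 of 8 changed in LNCaP after shETV1, where 2.68% of all genes rose and 2.5% fell by limma, and 2 of the 8 had an unadjusted p below 0.05. With EtOH 0 rose and 1 fell, against 1.22% and 2.97%. In VCaP after siERG, 1 rose and 0 fell with DHT, against 3.79% and 5.18%, and 1 rose and 1 fell with EtOH, against 5.37% and 5.87%. The median changes of the 8 genes in these 4 comparisons were 0.04, -0.04, 0.04 and 0.08, and those of all genes 0.02, 0.01, 0.02 and 0.01. With arrays centred on their medians, risen genes made up 31.6% of all called for shETV1 with DHT, against 51.7% as reported, and 25.2% for siERG with EtOH, against 47.8%.

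AFF3 was the gene that rose after siERG under both hormone conditions. With DHT its 3 siERG arrays, 248.50, 258.78 and 253.39, lay above the siControl arrays, 157.46, 181.19 and 143.81, a change of 0.61 ± 0.10 or 1.53-fold (adjusted p = 0.0041). With EtOH its siERG arrays, 82.87, 111.01 and 100.29, lay above 51.57, 43.61 and 54.57 in siControl cells, a change of 0.79 ± 0.10 or 1.73-fold (adjusted p = 0.000963). With the GAPDH ratio added to the model neither passed, and the estimates were 0.72 (adjusted p = 0.0708) with DHT and 0.69 (adjusted p = 0.0652) with EtOH. GAPDH ratios averaged 1.03 in siERG and 1.07 in siControl cells with DHT, and 1.09 in siERG and 1.05 in siControl cells with EtOH. The ratios of siERG and siControl arrays did not overlap with either treatment. Ratio and knockdown can therefore hardly be told apart in VCaP, here and for the other changes after siERG. In LNCaP after shETV1 AFF3 changed by 0.08 ± 0.09 with DHT and 0.15 ± 0.09 with EtOH, and neither passed. EAF2 changed after siERG by 0.18 ± 0.07 with DHT (adjusted p = 0.143) and 0.17 ± 0.07 with EtOH (adjusted p = 0.141), and both passed without siERG DHT replicate C.

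ELL3 fell after siERG with EtOH. Its siERG arrays read 578.30, 477.70 and 552.28 and its siControl arrays 707.64, 641.84 and 682.65, a change of -0.33 ± 0.09 (adjusted p = 0.037). The groups did not overlap, but the call was lost in 14 of 31 alternative settings, and probe set 219518_s_at changed by 0.03 ± 0.13. With DHT the change was -0.24 ± 0.09 (adjusted p = 0.134). EAF2 fell after shETV1 with EtOH, to 111.18, 129.95 and 132.55 in shETV1 cells, against 151.99, 153.55 and 155.09 in shControl cells, by 0.27 ± 0.06 (adjusted p = 0.0352). That call was lost in 15 of 31 settings, and with DHT the change was -0.17 ± 0.06 (adjusted p = 0.16). ELL2, whose changes after knockdown ran from -0.15 to 0.20 on its representing probe set, did not pass in any of the 4. Its other 2 brighter probe sets did not pass either, and differed in direction after siERG. The probe set 226982_at changed by -0.18 with DHT and -0.17 with EtOH after siERG, and by -0.09 and -0.25 after shETV1. In the same order 214446_at changed by 0.20 and 0.16 after siERG, and by -0.23 and -0.02 after shETV1.

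**Figure D4:**
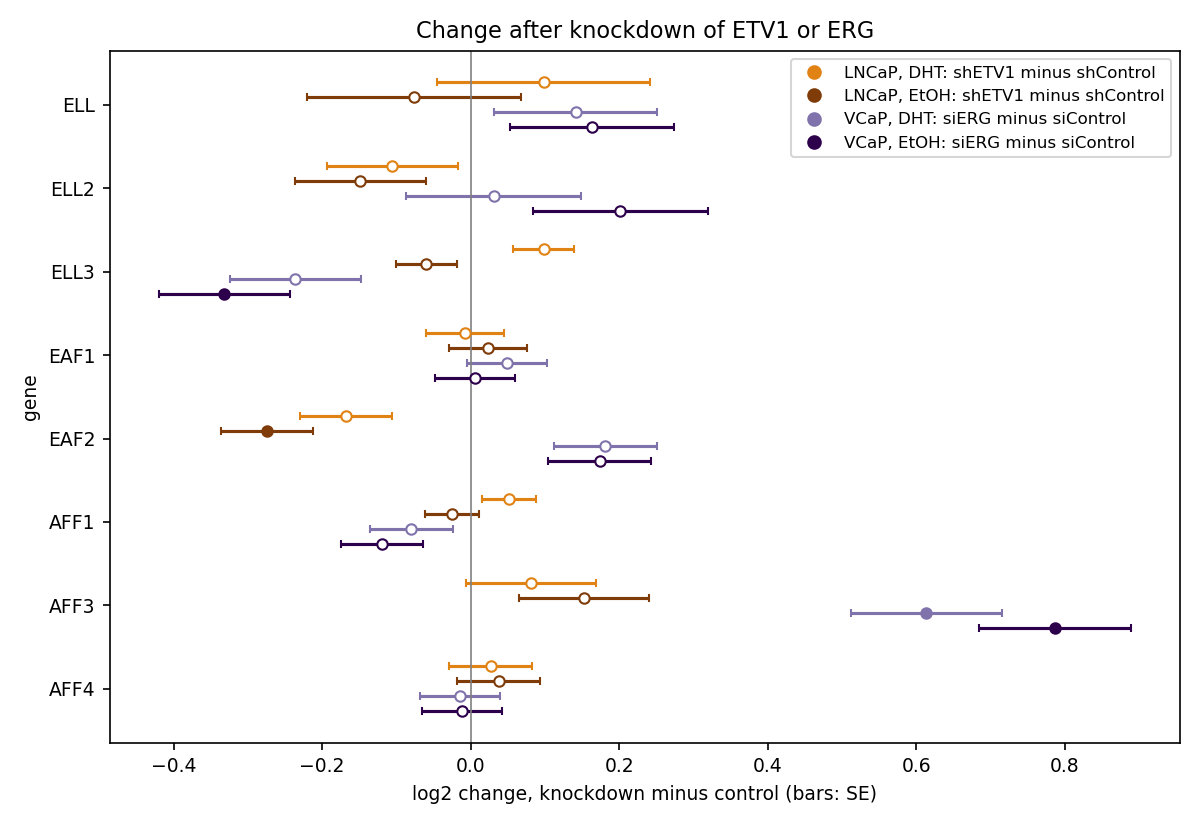
Change after knockdown of the 8 genes, as log2(intensity + 16) in shETV1 minus shControl (LNCaP) or siERG minus siControl (VCaP) cells, with DHT and with EtOH. Points are limma estimates, bars are SE (n = 3 arrays per group), and filled points passed an adjusted p of 0.05. AFF3 in VCaP stands apart at 0.61 and 0.79, and filled points are otherwise ELL3 in VCaP and EAF2 in LNCaP, both with EtOH.

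Whether knockdown altered the response to DHT was tested as an interaction. None of the 8 genes passed by limma in LNCaP (shETV1 minus shControl), where 0.078% of all genes had a higher and 0.0234% a lower response, and 1 of the 8, ELL3, had an unadjusted p below 0.05 (0.0216). None passed in VCaP (siERG minus siControl), against 0.0623% and 0.226%, and 0 of the 8 had an unadjusted p below 0.05. Median differences were 0.06 in LNCaP and 0.00 in VCaP for the 8 genes, and 0.01 and 0.00 for all. Centring on array medians moved the share of higher among all called in VCaP to 38.1%, against 21.6% as reported. The LNCaP difference in response, with its 95% interval, was 0.11 (-0.09 to 0.30) for EAF2, 0.04 (-0.23 to 0.32) for ELL2 and -0.07 (-0.34 to 0.20) for AFF3. The VCaP difference was 0.01 (-0.21 to 0.22) for EAF2, -0.17 (-0.54 to 0.20) for ELL2 and -0.17 (-0.49 to 0.15) for AFF3. The ELL2 value ran from -0.32 without siERG DHT replicate C to 0.48 with the GAPDH ratio in the model, so its direction was not settled.

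The other genes of transcription elongation were counted from 8 lists, with 45 of 48 listed genes measured and 44 tested in each line. With DHT, 6 rose and 10 fell in LNCaP shETV1, 6 and 13 in LNCaP shControl, 10 and 7 in VCaP siERG and 4 and 11 in VCaP siControl cells. Over all tested genes the shares that rose and fell were 18.8% and 19%, 18.6% and 22.3%, 20.1% and 25.2%, and 19.6% and 25.4% in the same populations. Their median changes were -0.05, -0.06, 0.03 and -0.05, where those of all genes were -0.00, -0.01, -0.02 and -0.03. After knockdown 2 rose and 1 fell in VCaP with EtOH, where 5.37% of all genes rose and 5.87% fell. In the other 3 comparisons 0 passed by limma, and 4 to 8 had an unadjusted p below 0.05. The shares of all genes that rose and fell there were 2.68% and 2.5% for shETV1 with DHT and 1.22% and 2.97% with EtOH. For siERG with DHT they were 3.79% and 5.18%.

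Of 5 direct partners in the complex that were tested, 3 fell with DHT in LNCaP shControl and 2 in VCaP siControl cells. Over all tested genes 22.3% and 25.4% fell. In those cells 0 of the 5 rose, and in VCaP siERG cells 1 rose and 2 fell, against 20.1% and 25.2%. MLLT3, a reader of acylated histones, fell by 0.38 ± 0.06 in LNCaP shControl and by 0.75 ± 0.10 in VCaP siControl cells. CCNT2, a cyclin T that pairs with CDK9, fell by 0.28 ± 0.05 and by 0.26 ± 0.04. Both also fell in the knockdown cells of each line. HEXIM2, which holds P-TEFb inactive, fell by 0.25 ± 0.05 in LNCaP shControl and 0.35 ± 0.06 in VCaP siControl cells. Of the 4 tested genes of P-TEFb control, 2 fell in LNCaP shControl and 1 in VCaP siControl cells, against the same shares of 22.3% and 25.4%. Of the 6 genes of the PAF1 complex, which travels with elongating polymerase, 2 rose and 1 fell in LNCaP shControl and 3 rose and 1 fell in VCaP siControl cells, where the shares over all tested genes were 18.6% and 22.3% in LNCaP and 19.6% and 25.4% in VCaP. PAF1 itself rose by 0.29 ± 0.08 in LNCaP and 0.30 ± 0.06 in VCaP. SIAH2, a ubiquitin ligase, rose in LNCaP shControl cells by 0.56 ± 0.07 and SIAH1, its relative known to act on ELL2, fell by 0.27 ± 0.06, while 0 of the 3 genes in that list passed by limma in VCaP siControl cells, where 1 had an unadjusted p below 0.05. CCNH and KMT2A fell in control cells of both lines, by 0.27 ± 0.04 and 0.27 ± 0.07 in LNCaP and by 0.17 ± 0.06 and 0.31 ± 0.06 in VCaP.

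For the 5 genes called in control cells of both lines, the 3 genes most like each were found by Pearson's correlation over the 24 arrays, after the mean of each line was taken off, among 12304 other genes. The arrays fall into DHT and EtOH sets, so these values mainly restate a shared response to DHT and carry no p. For EAF2 they were RHOU (r = 0.998), SASH1 (0.995) and ABCC4 (0.995), and for ELL2 IGF1R (0.991), HECW2-AS1 (0.988) and PLPP6 (0.988). For AFF3 they were ORM1 (0.980), ABCC1 (0.980) and INSIG1 (0.980). For AFF1, which fell, they were SNRK, NCOA7 and GALNT3 (0.978 to 0.979), and for AFF4 RANBP2 (0.949), CNDP2 (0.944) and USP33 (0.937).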

How the data were processed

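Intensities were used as deposited: the authors deposited 1 linear intensity per probe set and array for 24 arrays, and how scans were summarised and scaled was not given in the sources used here. Of 54675 probe sets, 41097 name a single gene in the probe table, giving 19775 genes. Values became log2(intensity + 16). The brightest probe set on average stood for each gene, and a gene was tested in a line if it exceeded the array median on 3 or more of the 12 arrays.

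Changes were estimated with limma 3.58.1 in R 4.3.3, 1 fit per line with 4 groups, empirical Bayes variances and two-sided p-values adjusted over all tested genes. The difference between lines used 1 fit of 8 groups. The fits were tested on simulated data. The replicates are described as biological. The p-values set a difference of group means against the spread between replicates, pooled over all groups of a fit.

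The members, gene lists and tests were chosen with earlier results of these data known. Of the lists, up to 2 risen and 2 fallen genes per comparison with the smallest adjusted p may be named; 3 listed partner genes were not analysed here. Alternatives were the pseudocount, the probe set per gene, the filter, normalization, variance model, threshold, arrays in the fit, RNA quality covariates, a replicate block, leaving out each array, and 1 further centring. Promoters come from RefSeq, GRCh38.p14.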

Additional observations from a re-analysis of the deposited data

Results flagged for a closer look

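The response to DHT differed between LNCaP shControl and VCaP siControl cells, by a test of the difference in limma, for 5 of the 8 genes. The differences, LNCaP minus VCaP, were 2.23 for EAF2, 1.56 for ELL2, 0.91 for AFF3, 0.29 for EAF1 and -0.35 for AFF1. For the first 4 the adjusted p stayed at or below 0.0282 in each alternative that gave a value; with averaged probe sets AFF3 was too dim to be tested. For AFF1 it did not pass with the average of all probe sets.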

How the results depend on the processing

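Of 1602 member changes recomputed under other settings, 41 lost and 13 gained a call and 1 reversed: the AFF1 difference between lines, 0.19 with averaged probe sets. Of 1152 recomputed without 1 array, 28 lost and 4 gained a call. Averaging also gave 0.73 for the EAF2 difference between lines (reported 2.23); its other probe sets lay below the median of every array. For DHT in shControl cells it gave 1.36 for EAF2 (3.27) and -0.22 for AFF1 (-0.65), and in siControl cells 0.63 for EAF2 (1.04) and 0.32 for ELL2 (0.54). Counts of members called that moved by over 1.5 times were these. For siERG with EtOH (reported 2) the count was 0 with averaged probe sets or the GAPDH ratio, and 1 with no filter, an adjusted p below 0.01, only the groups compared, the ACTB ratio or the replicate block. For siERG with DHT (reported 1) it was 0 with averaged probe sets or the GAPDH ratio, and 2 with array weights or all 24 arrays. For shETV1 with EtOH (reported 1) it was 0 with averaged probe sets, no filter, an adjusted p below 0.01, only the groups compared, either RNA ratio, the replicate block or centring over 1 probe set per gene. For the difference between lines (reported 5) it was 3 with averaged probe sets. Without 1 array these counts ran from 1 to 3, 1 to 2, 0 to 1 and 5 to 5. The ELL3 fall with DHT was lost without shControl EtOH A or C, shETV1 EtOH B or C, shControl DHT A or B or shETV1 DHT A. The ELL3 fall after siERG was lost without siControl EtOH A, B or C, siERG EtOH B or C, siControl DHT A or siERG DHT B. The EAF2 fall after shETV1 was lost without shControl EtOH A, B or C, shETV1 EtOH A or B, shControl DHT A or shETV1 DHT A. The EAF1 fall in siERG cells was lost without siERG EtOH B or C or siERG DHT A or B.

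Replicate letters do not pair the arrays (same-letter correlation of deviations -0.218 to 0.125 in LNCaP and -0.117 to 0.112 in VCaP). With the replicate block EAF2 after shETV1 and ELL3 after siERG, both with EtOH, did not pass (adjusted p = 0.0548 and 0.0535), and ELL passed with DHT in VCaP siControl cells at the margin.

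Counts over all genes ran, across settings other than left-out arrays, from 2517 to 6652 for DHT in siERG cells (reported 5814), 275 to 2235 for siERG with EtOH (1444), 272 to 2213 with DHT (1152), 142 to 752 for shETV1 with EtOH (538), 222 to 849 with DHT (665), 0 to 157 for the VCaP interaction (37) and 1 to 39 for the LNCaP interaction (13). Without 1 array they ran from 805 to 1961, 687 to 1578, 280 to 522, 328 to 629, 0 to 74 and 7 to 12 for the last 6. Moves of over 1.5 times came without siControl EtOH A, B or C or siERG EtOH B or C; siControl DHT A or C or siERG DHT B; shControl EtOH A or shETV1 EtOH A, B or C; shControl DHT A or B or shETV1 DHT A or C; each of the 12 VCaP arrays; and 9 of the 12 LNCaP arrays (not shETV1 DHT B or C or shControl EtOH C). Centring on the median of all probe sets, as planned, moved the share of risen genes among those called to 25.2% for siERG with EtOH (reported 47.8%) and to 31.6% for shETV1 with DHT (51.7%). Centring over 1 probe set per gene was first run in place of the planned form and was kept as an alternative added after seeing the data. For DHT it gave 60.8% (49.8%) in shETV1, 65% (45.5%) in shControl, 67.6% (44.3%) in siERG and 57% (43.5%) in siControl cells. It shifted the median of all genes by 0.12 for DHT in siERG cells. EAF1 in VCaP and AFF1 in siERG cells then did not pass, and EAF1 rose in LNCaP shControl cells. EAF2 kept its rise with DHT in all 4 populations under the alternatives run, and AFF3 did so under those that gave it a value. With averaged probe sets AFF3 fell below the filter and was not tested, which lowers the counts above.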
